A study of Mus musculus with 6 samples.

Results

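Mast cell progenitors (MCPs) from the limb of E11.5 mouse embryos were set against MCPs from the fetal liver of the same embryonic day, 1 library each. They are 2 of the 6 libraries of a study on the embryonic origin of connective tissue mast cells, and were picked by their sample labels. Both come from C57BL/6xFVB embryos, and the cells were sorted with a fate-mapping model for offspring of early erythro-myeloid progenitors (EMPs), Csf1r-iCre, a recombinase driven by the promoter of the Csf1r gene, so cells whose ancestors never used that promoter are not marked. The limb library is labelled E11_5_Limb and the liver library LiB7_pos. The other libraries, used only for comparison, are skin MCPs at E16.5, limb MCPs at E14.5 and, from the liver at E11.5, EMPs (LiB7_neg) and cells labelled MAC, called the macrophage-labelled library here, all from the same background and the same fate-mapping model. How many embryos went into a library and which antibodies set the gates is not given in the sources used here. With a single library per tissue there was no replicate, no standard error and no test, so every difference below describes these libraries and not limbs and livers in general.

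Mast cells are granule-bearing immune cells that finish their development in tissue. Their progenitors leave blood-forming organs, travel in the blood and settle in connective tissue, where stem cell factor acts on the receptor Kit. Their granules hold proteases such as carboxypeptidase A3, packed onto heparin chains carried by the core protein serglycin, together with histamine and serotonin that a vesicular transporter pumps in. In the embryo the liver is a blood-forming organ filled with red cell precursors, and the limb is not.

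Values are FPKM, the fragments of a gene scaled by its transcript length and by the depth of the library. Differences are of log2(FPKM + 1), limb minus liver, which understates the difference of low genes. A gene entered the comparison if one of the libraries gave it an FPKM of 10 or more, and was called at a difference of at least 2, a 4-fold difference on that scale. The steps between low FPKM values put the mapped fragments at about 8550000 in the limb library and 11900000 in the liver library. At an FPKM of 10 a transcript of 2 kb would rest on about 171 and 238 fragments, a counting error of 7.65% and 6.48%, and at an FPKM of 1 the counting error was 24.2% and 20.5%. These errors cover counting only.

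The cell type labels were set beside markers. All 10 mast cell markers were above 0 in both libraries, and their summed FPKM was 814 in the limb and 401 in the liver. Cpa3 alone gave 417 and 172 of these sums. Kit read 155 against 95.3, Ms4a2, which encodes the beta subunit of the IgE receptor, 28.6 against 23.8, and Il1rl1, a receptor for an alarm cytokine, 8.31 against 7.6. Fcer1a, the alpha chain of the IgE receptor, was low in both (1.26 and 1.55). Cd200r3, another of these markers, went the other way below the filter (3.8 against 9.1, difference -1.07). Being above 0 does not set MCPs apart, since nearly all of these markers were also above 0 in the other liver libraries. Each of them but Mitf was lower there than in liver MCPs. Hdc read 60.5 in EMPs and 43.6 in the macrophage-labelled library, against 63.7 in liver MCPs. In the same order Cpa3 read 13.6 and 10.3 against 172, and Mitf 0.92 and 0.98 against 0.30. Structural markers of the limb were low in the limb library. The 6 connective tissue markers (collagens, Prrx1, Twist1 and Pdgfra) summed to 0.95, the 4 muscle markers to 0.17 and the 4 epithelial markers to 0.69. Wider lists were less clear, since the limb connective tissue list also holds Nrep (64.2 against 7.75), Sparc (4.19 against 4.39) and Hoxd13 (3.58, listed at 0 in the liver). The 4 hepatocyte markers summed to 0.44 in the limb and 3.09 in the liver, while Trf, transferrin, from the wider hepatocyte list went the other way (27 against 10.2). Markers of other blood cells were present in both libraries. Those of neutrophils summed to 454 in the limb and 946 in the liver, nearly all of it Mpo, myeloperoxidase. Those of red cells summed to 13.3 and 241, those of megakaryocytes to 12.9 and 22, those of macrophages to 27.6 and 58.9 and those of eosinophils to 74.4 and 59.9. Most of the macrophage sums came from Lyz2 (23.3 and 55.1). Lymphoid markers summed to 28.3 and 11.8, most of it Cd3g (24.8 and 10.9). What part any of these cells have in the differences below was not tested. In bulk RNA, fewer cells of a type and less RNA per cell cannot be told apart, here and in what follows.

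Of 3136 genes that passed the filter, 101 were called (3.22%), 37 higher in the limb (1.18%) and 64 lower (2.04%). Among those higher were the chemokine receptor gene Ccr8, the amine transporter gene Slc18a2 and the heparan sulfate enzyme gene Hs3st1, and among those lower were the globins, Ermap and Lmo2. The median over all genes passing the filter was -0.16. Median-of-ratios scaling, which aligns the libraries on the middle of their gene ratios, moved every difference upward by 0.11 before the pseudocount and brought that median to -0.03. After it 98 of 3124 genes were called (3.14%), 47 higher (1.5%) and 51 lower (1.63%), and they included all 37 genes that were higher as deposited. Of all called genes, those lower in the limb made up 63.4% as deposited and 52% after scaling. Scaling both libraries to equal sums gave 51.5%. A balance between higher and lower genes therefore depended on the scaling. At a 2-fold difference, used below for gene lists, 8% of all genes passing the filter were higher and 14.1% lower (22.1% in all), and 9.96% and 10.9% after median-of-ratios scaling (20.8% in all). A list count depends on the filter, since a gene can pass through its high library alone. Of the 3136 genes, 423 passed through the limb alone, 639 through the liver alone and 2074 in both. Beside lists where this matters, counts are also given for all members that reached an FPKM of 1 in one of the libraries. Of the 9547 genes at that level, 7.75% were 2-fold higher and 12.8% lower, with a median of -0.09.

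**Figure D1:**
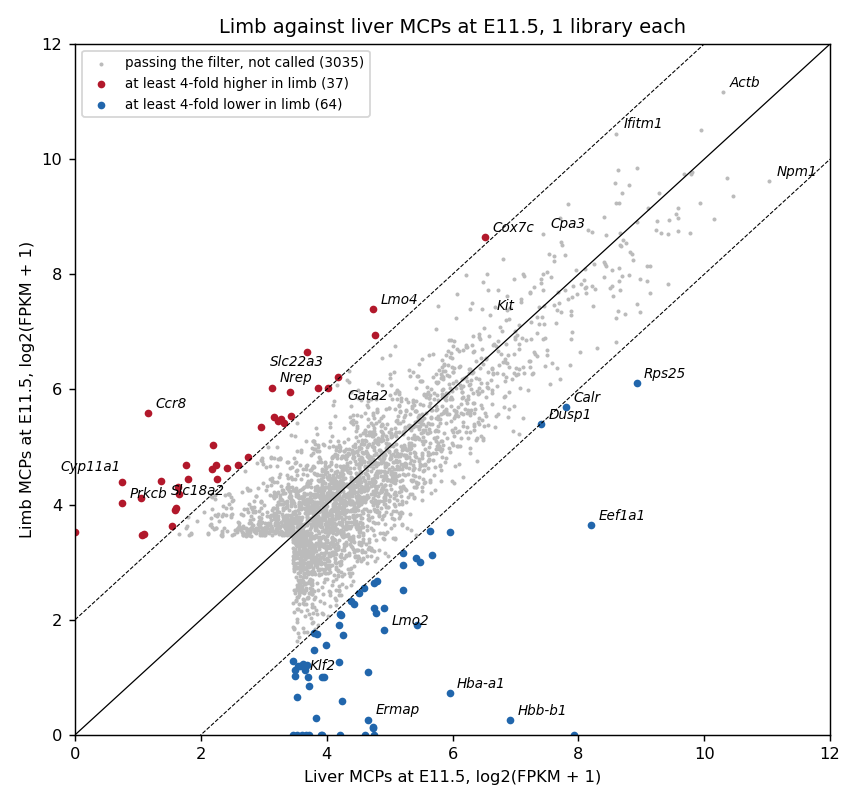
Each point is a gene that passed the FPKM filter, plotted as log2(FPKM + 1) in liver MCPs (horizontal) and limb MCPs (vertical) at E11.5. The solid line marks equal values and the dashed lines a difference of 2, and the 37 red and 64 blue points are the called genes, with Ccr8 farthest above and Hbb-b1 far below.

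Granule genes are described first. Slc18a2, which encodes the vesicular transporter that loads histamine and serotonin, read 20.4 in the limb and 1.59 in the liver (difference 3.04). It was listed at 0 in liver EMPs and in the macrophage-labelled library and read 28 in limb MCPs at E14.5 and 42.7 in the skin, so the liver libraries lay below all 3 tissue libraries. Slc22a3, a plasma membrane carrier of organic cations that include histamine, read 73.5 against 17.1 (2.04). Maob, a mitochondrial enzyme that degrades amines, read 17.2 against 2.15 (2.53). These were 3 of the 6 amine mediator genes that passed the filter, and no member was 2-fold lower. Hdc, which makes histamine, was above the liver value without reaching 2-fold (114 against 63.7), as was the serotonin transporter Slc6a4 (13.1 against 8.14). The list had a median of 1.43, against -0.16 over all genes, but 3 of the 6 (Slc18a2, Maob and Slc6a4) passed through the limb alone. Of the 10 members that reached an FPKM of 1, 5 were 2-fold higher and 1 was lower (median 0.96). The member with the lower value was Maoa, the other amine oxidase gene, listed at 0 in the limb and at 2.26 in the liver.

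Of the heparin and glycosaminoglycan list 8 genes passed, 6 of them through the limb alone, and 5 were 2-fold higher (median 1.39). Of the 35 members that reached an FPKM of 1, 11 were 2-fold higher and 2 lower, with a median of 0.47. The members with lower values were Glce, an epimerase of the chain (listed at 0 in the limb, 3.03 in the liver), and Papss1 (0.77 against 2.58). The genes that passed mostly act in order on the growing chain. Ext1, which polymerises it, read 10.1 against 4.61. Ext2, also on the list, was closer, at 18.9 against 14.1 (difference 0.40). The N-deacetylase and N-sulfotransferase genes Ndst1 and Ndst2 read 26.4 against 6.77 and 26.9 against 8.51. Hs2st1, which adds 2-O-sulfate, read 21.4 against 8.5. Hs3st1, which adds 3-O-sulfate, read 18.8 against 2.11 and was 1 of the called genes. Papss2, which makes the sulfate donor, read 37.8 against 21. Ids, a lysosomal sulfatase that takes heparan and dermatan sulfate apart, was called as well (16.2 against 1.06). Xylt1, the chain initiator, was listed at 0 in both libraries.

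Granule proteins were higher to a smaller degree. Serglycin, Srgn, read 592 against 227, Gzmb, a granzyme, 56.4 against 21.5 and Cpa3 417 against 172, each above 2-fold and below 4-fold. Ctsc, the protease that activates granzymes, read 16.7 against 8.14. Ctse, cathepsin E, had equal values (175 and 175). The median of the 5 members that passed was 1.27, and 1 of them passed through the limb alone. Of the 11 members that reached an FPKM of 1, 6 were 2-fold higher and 0 lower. Proteases of mature connective tissue mast cells were barely measured on this day. Tpsb2 read 0.21 in the limb, Mcpt4 0.12, and Cma1 and Tpsab1 were listed at 0 in both libraries, while limb MCPs at E14.5 read 605, 86.8, 31.9 and 195.

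Cyp11a1, the mitochondrial enzyme that starts steroid synthesis, had the second largest difference upward (20.1 against 0.67). EMPs listed it at 0, the macrophage-labelled library read 0.1, and the older limb and the skin read 70.8 and 124, so its tissue and liver values did not overlap. Among the other lipid mediator genes, Ptger1, a prostaglandin receptor, was higher as well, with a difference of 1.65. Alox5, which starts leukotriene synthesis, went the other way without reaching 2-fold (14 against 26.8), and so did Pla2g4a, which releases arachidonic acid (8.02 against 16). The list median was -0.03 as deposited, and 0.08 after median-of-ratios scaling, so it had no settled sign.

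Ccr8, a chemokine receptor best known from skin-homing lymphocytes, had the largest difference upward, 46.9 against 1.23. Liver EMPs listed it at 0 and the macrophage-labelled library read 0.39, while limb MCPs at E14.5 read 222 and skin cells 12.9. Of 8 chemoattractant receptors that passed, 5 were 2-fold higher in the limb and 1 was lower (median 1.21), with 4 that passed through the limb alone. Of the 21 that reached an FPKM of 1, 7 were 2-fold higher and 1 lower (median 0.63). Ccr2 read 26.8 against 8.59 and Cx3cr1 29.5 against 10.5. S1pr4, a receptor for sphingosine 1-phosphate, read 10.8 against 4.85. The member with a lower value was Cxcr4, the receptor that holds progenitors at sites rich in its ligand Cxcl12 (3.26 against 14.3).

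Upstream sequences are shown for 3 genes with higher values in the limb (Ccr8, Slc18a2 and Cpa3) and for Ermap, a red cell gene with a lower value. They let the reader see the GATAA and CACCC letters, which are parts of the motifs of GATA factors and of KLF factors. Each is the 250 bases before a RefSeq start site on GRCm38.p6, 5′ to 3′ along the gene, with GATAA or CACCC on either strand in capitals.
Ccr8, chr9:120091883-120092132, plus strand: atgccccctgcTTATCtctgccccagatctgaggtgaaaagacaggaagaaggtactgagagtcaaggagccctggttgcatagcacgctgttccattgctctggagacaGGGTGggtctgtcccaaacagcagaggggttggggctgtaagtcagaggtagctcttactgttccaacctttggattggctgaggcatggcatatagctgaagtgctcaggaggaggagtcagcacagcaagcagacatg
Slc18a2, chr19:59260628-59260877, plus strand: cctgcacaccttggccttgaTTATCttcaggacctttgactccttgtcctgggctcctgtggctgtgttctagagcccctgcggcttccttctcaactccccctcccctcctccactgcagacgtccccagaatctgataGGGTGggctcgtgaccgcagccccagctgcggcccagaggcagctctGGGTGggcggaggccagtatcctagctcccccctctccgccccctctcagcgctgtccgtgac
Cpa3, chr3:20242182-20242431, minus strand: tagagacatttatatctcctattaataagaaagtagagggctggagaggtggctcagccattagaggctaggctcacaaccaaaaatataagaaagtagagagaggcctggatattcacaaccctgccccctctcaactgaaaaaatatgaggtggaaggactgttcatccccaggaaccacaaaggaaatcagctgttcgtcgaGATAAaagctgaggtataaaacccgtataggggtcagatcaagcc
Ermap, chr4:119189996-119190245, minus strand: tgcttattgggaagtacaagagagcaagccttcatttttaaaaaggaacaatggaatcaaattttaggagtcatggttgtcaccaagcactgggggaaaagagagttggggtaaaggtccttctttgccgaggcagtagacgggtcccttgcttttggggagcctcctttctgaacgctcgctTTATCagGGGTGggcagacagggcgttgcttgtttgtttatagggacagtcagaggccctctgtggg
All 4 windows hold GATAA 1 time. The 4 genes were picked by name, and their windows do not stand for the called genes as a set. CACCC is found 2 times before Slc18a2, 1 time each before Ccr8 and Ermap, and not before Cpa3. Of all 32851 windows of this kind, 22.6% held GATAA and 52% CACCC. Start sites were found for 26 of the 37 genes called higher and 51 of the 64 called lower. GATAA was in 18.4% of the windows of the former and 13.2% of the latter, and CACCC in 71.1% and 67.9%. For 27 genes of the erythroid list the shares were 54.8% and 67.7%. These are letter counts and not binding sites.

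Receptor signalling differed in a few members only. Of 15 genes of the IgE receptor pathway that passed, 1 was 2-fold higher and 1 lower, and the median was 0.15. The member with a higher value was Prkcb, protein kinase C beta (15.2 against 0.68), and the other was Prkcd, protein kinase C delta (6.46 against 19.9). Fcer1g, the shared gamma chain, read 105 against 74.1 and the adaptor Lat 11.4 against 8.02. Among mast cell surface receptors, Adgre5, the adhesion receptor CD97, read 35.4 against 10.3, Gpr65, a proton sensor, 14.3 against 4.57 and Adora3, an adenosine receptor, 20.8 against 7.57, which made 3 of 8 at 2-fold with a median of 0.53. Over the 29 members that reached an FPKM of 1, 6 were higher and 4 lower and the median was -0.08. Il2rg, the common gamma chain of interleukin receptors, read 252 against 72.8. Pdgfrb (11.2 against 3.52) and the BMP receptor Bmpr2 (15.5 against 6.73) were the other members of 8 cytokine receptors at 2-fold. Ifitm1, an interferon-induced membrane protein gene, was the third most abundant gene of the limb library (1393 against 387), and H2-D1, a class I MHC gene, read 60.9 against 19.8.

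Cytokine genes were few. Igf2, a fetal growth factor, read 33.3 against 11.8, Tgfb1 50.8 against 24.1 and Tnfsf10 10.3 against 3.33, while Ccl3, a chemokine of activated mast cells and macrophages, read 21.9 against 51.2. Il13, a type 2 cytokine, stayed below the filter, at 8.69 in the limb and listed at 0 in the liver, and read 67.9 in limb MCPs at E14.5. It is named here because of its value.

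Adhesion genes differed little as a list. Of 20 members, 2 were 2-fold higher and 2 lower, with a median of 0.18. Over the 32 that reached an FPKM of 1, 3 were higher and 8 lower and the median was -0.06. Among integrin chains, Itga4 read 80.5 against 76.5, and its partners lay on opposite sides without reaching 2-fold, Itgb7 at 18.5 against 10.4 and Itgb1 at 11.9 against 22.2. Evl, which extends actin filaments at adhesion sites, was called (31.9 against 3.55). Cd81, a tetraspanin, read 168 against 76.7, and Cd47, which restrains phagocytes, 7.65 against 20.9. Among 49 actin genes, 5 were 2-fold higher and 1 lower (median 0.15), with Tmsb10, a thymosin, at 174 against 53.5, Cdc42 at 232 against 88.4 and Tpm1, a tropomyosin, at 11.1 against 37.9.

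Transcription factors of the mast, red cell and megakaryocyte lineages stood on both sides. Of 23 that passed, 4 were 2-fold higher in the limb and 6 lower, with a median of 0.20. Over the 47 that reached an FPKM of 1, 7 were higher and 11 lower and the median was -0.02. Lmo4, a LIM domain adaptor, read 167 against 25.8 and was called, and Lmo2, the LIM adaptor that joins GATA and TAL1 proteins, was called in the other direction (2.53 against 29.2). Lmo4 read 4 in EMPs, 6.43 in the macrophage-labelled library, 27.1 in the older limb and 0 in the skin, so the E11.5 limb stood alone at the top. Lmo2 read 21.6, 15.8, 0.12 and 0.29 in the same libraries, which put all liver libraries above all tissue libraries. Gata2, which mast cells keep and red cells lose, read 66.2 against 16.9, just short of the rule at 1.91. Gata2 read 142 in the older limb and was listed at 0 in the skin. Gata1, another GATA factor of this list, had close values (16.3 against 14.9). Several factors of red cell and progenitor programmes were lower. Klf1 read 8.27 against 21.3, Gfi1b 7.61 against 18.7, Myb 49.6 against 118, Nfe2 9.17 against 20.7 and Tal1 8.65 against 20.2. Ikzf2 (difference 1.16) and Erg (16.8 against 7.84) were above 2-fold in the limb. Fli1 (21.91 against 13.35) and Runx1 (28.5 against 20.3) were above their liver values without reaching 2-fold. Mitf, a master regulator of mature mast cells, was below an FPKM of 1 in both. Of 13 myeloid factors none was 2-fold higher and 2 were lower (median 0.29). Spi1, a master factor of myeloid cells, read 15.9 against 15.4. The members with lower values were Klf2, which guides leukocyte traffic (1.28 against 11), and Etv6 (4.12 against 11.3).

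Progenitor genes were mixed as well. Cd34, a surface protein of progenitors, read 55.1 against 22.3, Hmga2, a fetal chromatin protein, 44.2 against 28, and Lin28b 19.8 against 24.5. Adgrg1, an adhesion receptor of stem cells, read 16.6 against 41.1 and Grb10, an imprinted signalling adaptor, 13.5 against 34.4. Of 13 members, 2 were 2-fold higher and 4 lower.

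The remaining genes called higher fall in several roles. Nrep, which stands on the limb connective tissue list, read 64.2 against 7.75, Furin, the protease that cuts proproteins in the Golgi, 20.7 against 2.45 and Creb3l2, a membrane-bound factor of secretory cells, 23.5 against 3.54. Dmd, dystrophin, read 45 against 7.91, Hapln1, a link protein of hyaluronan, 24.9 against 3.72, Psen2, a presenilin, 39.7 against 6.78 and Cd7, a surface protein of T and NK cells, 23.8 against 4.35. Slc45a3 read 45.2 against 9.79, Inpp4b, a phosphoinositide phosphatase, 11.3 against 1.92, and the transcriptional repressor Hbp1 42.8 against 8.37. Aes, Smco4, Mif4gd, Fam195b, Trp53rka, Galm, H2afy2 and Ss18 were called with limb values between 10.1 (H2afy2) and 63.9 (Ss18). Histone genes Hist1h3f, Hist1h3d and Hist2h3c2 and the pseudogene Rpl31-ps12 share sequence with other copies, so their single values are uncertain.

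Red cell genes were lower in the limb more than any other list. Of 13 members that passed, 10 were 2-fold lower, 6 of them at 4-fold, and none was higher, with a median of -1.68. Of the 13, 10 passed through the liver alone. Of the 32 members that reached an FPKM of 1, 19 were 2-fold lower and 1 higher (median -1.20). The list also holds Klf1, Tal1 and Ctse, described above under other lists. Hbb-b1, adult-type beta globin, read 0.19 in the limb and 120 in the liver, with 25.3 in EMPs, 8.49 in the macrophage-labelled library, 0.29 in the older limb and 0 in the skin. Hba-a1, alpha globin, read 0.65 in the limb and 61.1 in the liver. Hbb-b2 and Hbb-bt, which share reads, both read 25.6 in the liver and 0.10 and 0.09 in the limb. Ermap, a red cell membrane protein, read 0.20 against 24.3 and Mfsd2b, which exports sphingosine 1-phosphate from red cells, 2.32 against 18.1. Car2, a carbonic anhydrase, read 9.6 against 32.9, Car1 28.7 against 41.1, and Blvrb, biliverdin reductase B, had nearly equal values (43 and 44.8). The summed level of the 8 red cell markers was 13.3 in the limb and 241 in the liver, and their part in other differences was not tested. Of 17 heme and iron genes, 3 were 2-fold lower and 1 higher (median -0.52). Of the 17, 6 passed through the liver alone and 1 through the limb alone. Over the 33 that reached an FPKM of 1, 7 were lower and 1 higher. Among enzymes of heme synthesis Cpox read 4.85 against 23.2 and Urod 26.3 against 28.5, and Slc25a38, a mitochondrial glycine carrier of that pathway, read 18 against 5.72.

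Neutrophil and monocyte genes were 2-fold lower in 8 of 11 members and higher in 2 (median -1.25), with 5 that passed through the liver alone and 1 through the limb alone. Of the 24 that reached an FPKM of 1, 13 were lower and 2 higher. Of 5 megakaryocyte genes that passed the filter, none was 2-fold higher or lower (median -0.16). Of the 23 that reached an FPKM of 1, 10 were lower and 2 higher, all of them below the filter. Mpo read 417 against 878, S100a9 21.3 against 70.8, S100a8 13.5 against 35.4, Lcn2, lipocalin 2, 3.05 against 10.6 and Anxa1, annexin A1, 7.03 against 43.8. Elane, neutrophil elastase, did not differ in value (15.1 and 14.7). Nkg7, a cytotoxic granule gene, and Ccr2 were the members with higher values. Eosinophil genes stayed close, Prg2 at 54.1 against 40.4 and Epx at 11.2 against 10.9. Among macrophage genes Lyz2, lysozyme, read 23.3 against 55.1, while Tyrobp, an adaptor that mast cells use too, read 308 against 111, and Csf1r was near 0 in both (0.50 and 0.43). Cd3g, a T cell receptor chain gene, read 24.8 against 10.9, while Cd3e, its partner, read 0.49 and 0.17.

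Genes of DNA replication and mitosis had lower limb values more often than higher ones, by less than the red cell genes. Of 36 replication genes, 28 had lower limb values and 14 were 2-fold lower, and none was 2-fold higher (median -0.71). At an FPKM of at least 1 the count was 22 of 58 lower and 0 higher. Tipin, a replication fork protein, read 7.45 against 41.8, Cdc45, part of the replicative helicase, 3.49 against 13.2, Rrm1, a ribonucleotide reductase subunit, 7.57 against 25 and Dbf4, a kinase activator at origins, 2.44 against 11.9. Of 44 mitosis genes, 38 had lower limb values and 16 were 2-fold lower (median -0.67), with Bub1b at 4.94 against 18.9 and Ndc80 at 4.36 against 15.5. Of the 44, 17 passed through the liver alone and 1 through the limb alone. At an FPKM of at least 1, 22 of 68 mitosis genes were 2-fold lower and 0 higher. Spc24, a kinetochore gene, was above its liver value (16.3 against 7.92).

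Immediate early genes, which switch on soon after a stimulus, were 2-fold lower in 7 of 19 and higher in none (median -0.83). Of the 19, 7 passed through the liver alone and 1 through the limb alone. At an FPKM of at least 1, 9 of 37 were 2-fold lower and 2 higher (median -0.47). Fos read 37.9 against 123, Fosb 4.5 against 21.7, Dusp1, a MAP kinase phosphatase, 41.1 against 169 and Tnfaip3, a brake on NF-kB, 6.03 against 20.1. Fosb and Dusp1 were not low in the older limb library, which read 80.7 and 298. Zfp36l1 went the other way (47.4 against 23.4).

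Chaperone, ribosome biogenesis and ribosomal protein genes had medians below that of all genes, although most members were within 2-fold. Of 37 chaperones and heat shock genes, 14 were 2-fold lower and none higher (median -0.84), including Calr, calreticulin of the endoplasmic reticulum (50.6 against 222), Hsp90b1 (99.9 against 259) and Hspd1 of mitochondria (85.4 against 233). Of 38 ribosome biogenesis genes, 17 were lower and 1 higher (-0.96), with Npm1, nucleophosmin, the most abundant gene of the liver library, at 785 against 2096, Odc1, which makes polyamines, at 28.7 against 76.6 and Gar1 at 5.79 against 17.9. Of the 38 biogenesis genes, 16 passed through the liver alone and 3 through the limb alone. At an FPKM of at least 1, 22 of 57 were lower and 1 higher. Of 78 ribosomal protein genes, 20 were 2-fold lower and 2 higher (-0.66). They ran from Rps25 (68.1 against 486) to Rpl34 (69 against 19.5), and Rps27 was listed at 0 in the limb. Many of these genes have processed copies that share reads. Proteasome subunits (median -0.57, 8 of 36 lower) and mitochondrial ribosomal proteins (-0.54, 9 of 27 lower and 1 higher) leaned the same way. Of these 27, 12 passed through the liver alone and 4 through the limb alone. Of the 73 that reached an FPKM of 1, 14 were lower and 4 higher (median -0.35). Splicing genes were split at the extremes, with Khsrp at 24.8 against 2.4, Srsf4 at 63.7 against 13.6, Srsf3 at 7.72 against 50 and Hnrnpa3 at 3.61 against 26.

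Other lists had medians nearer to that of all genes or above it. Respiratory chain genes had a median of -0.28, with 4 of 72 at 2-fold higher and 10 lower, among them Cox7c, a cytochrome oxidase subunit, called higher (400 against 90.4), and Ndufb9, of complex I (25.9 against 83.1). Glycolysis genes (median 0.34) showed 2 of 19 at 2-fold higher, among them the glucose transporter Slc2a3 (72.3 against 31), and 1 lower. Cholesterol and fatty acid genes had a median of 0.46, none of 11 at 2-fold higher and 1 lower, with the regulators Srebf1 (18.8 against 9.94) and Srebf2 (17.4 against 9.05) just short of it. Lysosome genes had 3 of 28 higher and 1 lower (0.23). Besides Ids these were Gm2a, an activator of ganglioside breakdown (28.8 against 12.7), and Psap, prosaposin (46.1 against 21.4), with Fuca1, a fucosidase, at 3.29 against 13.3. Genes of granule traffic were even (0.19, 2 higher and 2 lower of 29), with Rabac1 at 16.2 against 3.66 and Vamp8, a granule fusion protein, at 29.1 against 61.5. Histones were 2-fold higher in 11 of 48 and lower in 3 (0.59). Of the 48, 11 passed through the limb alone and 4 through the liver alone. Over the 69 that reached an FPKM of 1, 14 were higher and 6 lower. Solute carriers were higher in 7 of 32 and lower in 1 (0.63, and 0.19 over the 144 that reached an FPKM of 1). Those higher included Slc7a8, an amino acid transporter (33.6 against 12.7).

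**Figure D2:**
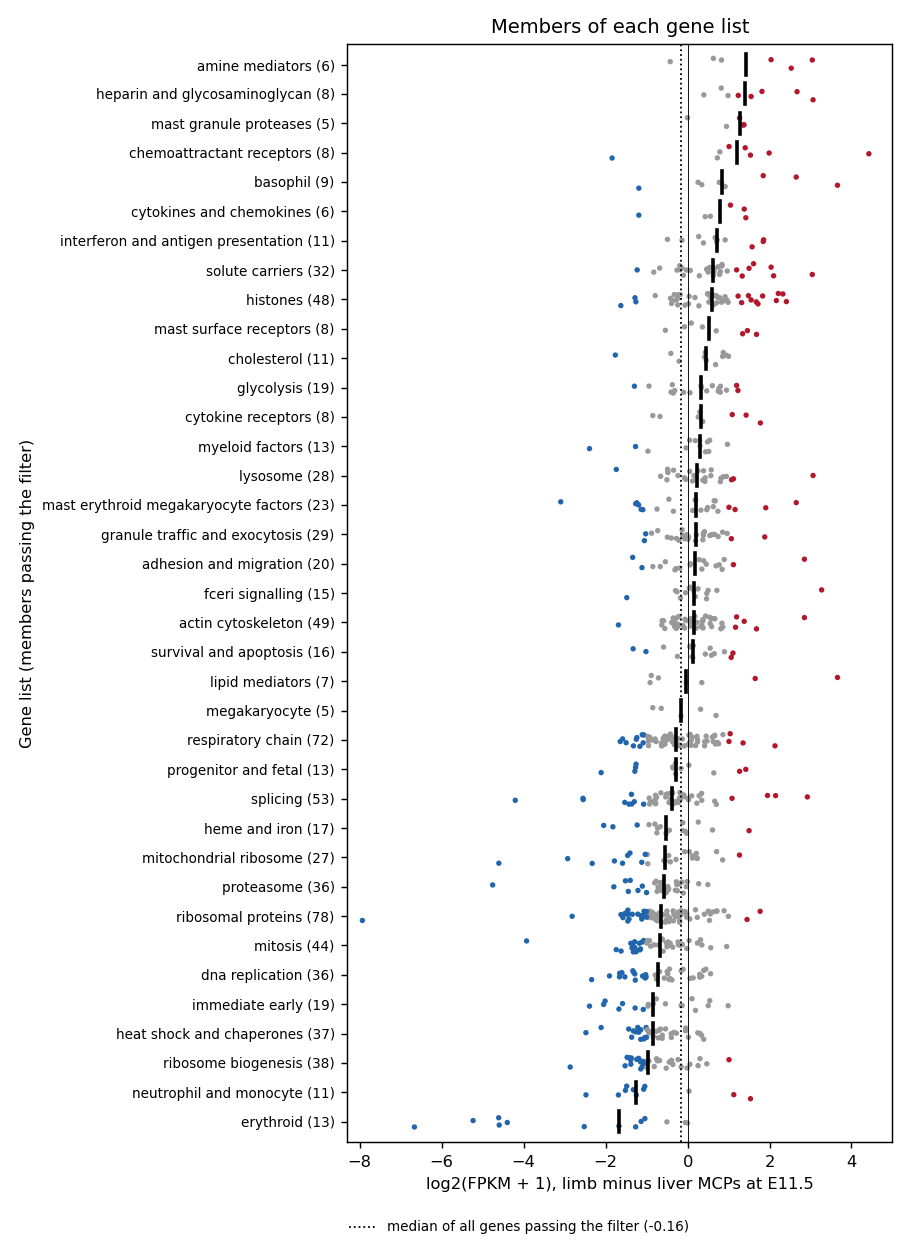
Each point is a gene list member that passed the FPKM filter, placed by its log2(FPKM + 1) difference, limb minus liver MCPs, with red and blue for at least 2-fold higher and lower. Thick bars are list medians, from -1.68 for erythroid genes to 1.43 for amine mediators, and the dotted line is the median of all genes passing the filter, -0.16.

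The called genes were sorted by their values in the other libraries. The grouping was made after the values had been seen, and a 2-fold difference on the log2(FPKM + 1) scale was asked for. Of the 37 genes called higher, 26 were also 2-fold above both liver EMPs and the macrophage-labelled library, and 8 were within 2-fold of each of them. The first group held Ccr8, Cyp11a1, Slc18a2, Maob, Hs3st1, Ids, Slc22a3, Nrep and Lmo4. The second held Khsrp, Srsf4, Cox7c, Arfgap2, Ss18, Hist1h3d, Hist2h3c2 and 1810037I17Rik, and liver MCPs had the lowest value among the E11.5 libraries there, while skin MCPs were lower still for 7 of the 8. Khsrp read 39.9 in EMPs, 21.2 in the macrophage-labelled library, 24.8 in the limb and 2.4 in liver MCPs. Of the 64 genes called lower, 26 were 2-fold below all 3 liver libraries and 19 were low only against liver MCPs. The 26 included the globins, Lmo2, Klf2, Anxa1, Calr, Dusp1, Ass1, an arginine synthesis enzyme (1.14 against 24.2), and Atp8b4, a phospholipid flippase, which read 51.1 in EMPs, 42.5 in the macrophage-labelled library, 17.9 in liver MCPs and 0.51 in the limb. The 19 included Rps25, Rbm25, Hnrnpa3, Tipin, Hmgn5 and Eif2s3x. For 17 of the 19 liver MCPs had the highest value of all 6 libraries, and for Rbm25 and Sltm the skin was higher. Rps25 read 486 in liver MCPs, 91.6 in EMPs, 52 in the macrophage-labelled library and 68.1 in the limb. Liver MCPs had the highest value of the 6 libraries for 48 of the 64 genes called lower and the lowest for 8 of the 37 called higher. The call itself rested on the limb and liver MCP values, so these groups and ranks were partly set by it. The same shares over all genes were not computed, and the counts only describe the called genes.

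Zeros need care. Of the genes called lower, 11 were listed at 0 in the limb (Rps27, Psmc1, Mrps21, Prpf8, Casc5, Anapc1, Matr3, Usf3, Fam65a, Ppp1r12a and Acat3), and Arfgap2 was listed at 0 in liver MCPs. Several of them, such as the proteasome subunit Psmc1, the spliceosome core gene Prpf8 and the ribosomal protein gene Rps27, serve every cell, so only the listing is stated and no fold is given. A transcript of 2 kb listed at 0 could still hold an FPKM of up to 0.175 in the limb and 0.126 in the liver (3 fragments, counting error only). Without genes at 0 in either library 36 were higher and 53 lower.

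**Figure D3:**
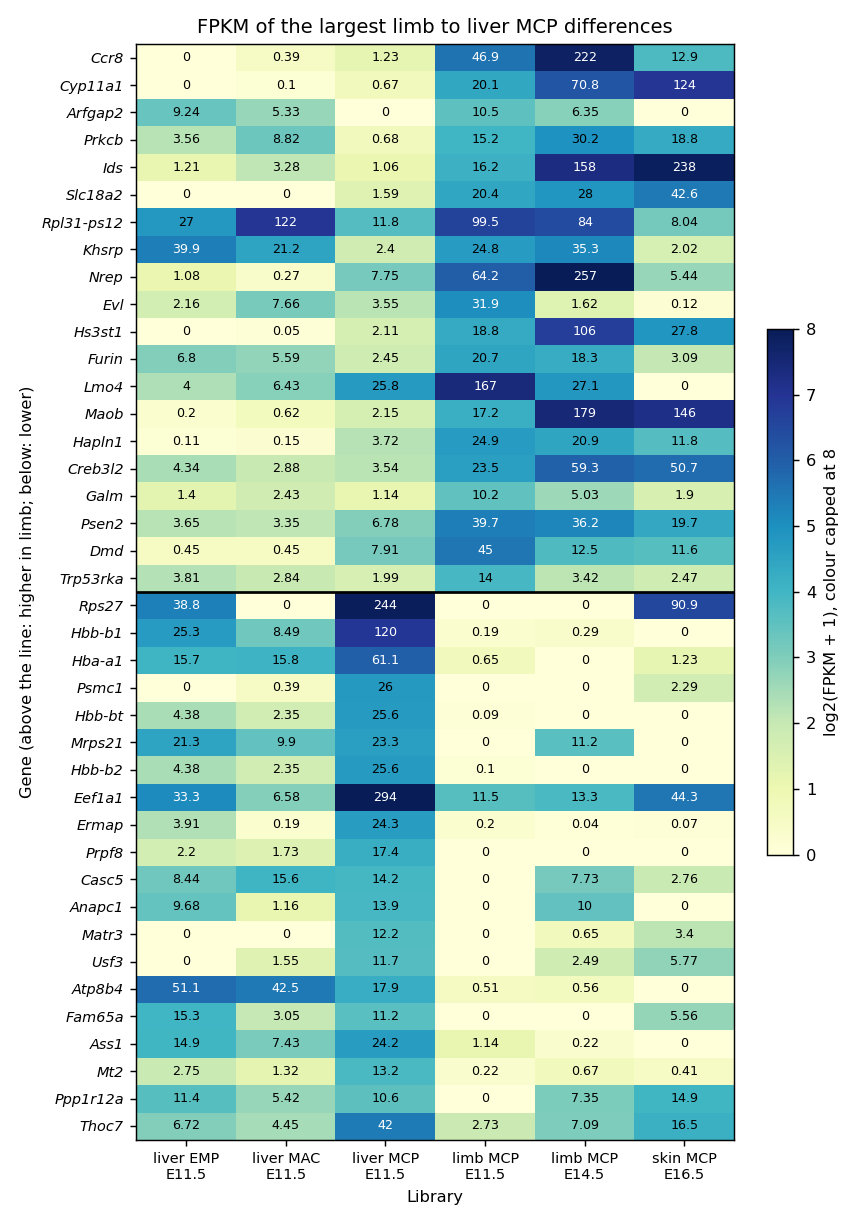
FPKM of the 20 largest differences in each direction (rows, without predicted and histone genes) in the 6 libraries (columns), with the value in each cell and colour for log2(FPKM + 1). The upper rows hold genes low in every liver library, such as Ccr8 and Slc18a2, and a few that are low in liver MCPs and not in the other liver libraries, such as Khsrp, and Atp8b4 below is low in the limb alone among the E11.5 libraries.

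The called genes were also read in a pair of libraries that played no part in choosing them, limb MCPs at E14.5 against liver EMPs. With no filter in that pair, 23 of the 37 genes called higher were 2-fold higher in the older limb and 1 was lower (median 1.76). Of the 64 genes called lower, 26 were lower and 5 higher (median -0.63). Over the 3136 genes from which the members came, 7.97% were higher and 10.7% lower, with a median of -0.15. Reading them without the filter was chosen after the data had been seen. With the filter 28 of the 37 passed, of which 20 were higher and 1 lower, and 19 of those 20 passed through the older limb alone, so that count lends no support. Of the 64, 33 passed, of which 14 were lower and 4 higher, and 11 of the 14 passed through the EMPs alone. Over all 3351 genes passing there, 10% were higher and 15.4% lower. The pair differs in age and cell type as well as in tissue. Values of several limb genes were larger in the older limb. Nrep read 257, Maob 179, Ids 158, Hs3st1 106 and Cyp11a1 70.8 there. Others were not, with Evl at 1.62, Lmo4 at 27.1, Cd7 at 3.2 and Ifitm1 at 45.4. Connective tissue markers were also higher in the older limb library. Col1a1 read 17.6, Col3a1 14.4 and Prrx1 4.43 there, against 0.1, 0.12 and 0.39 in the limb at E11.5. Their part in the values of the older limb was not tested.

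**Figure D4:**
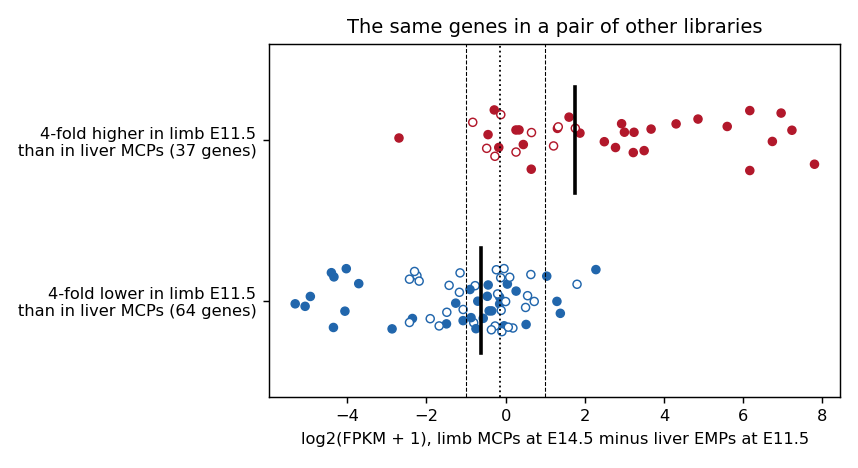
Each point is a gene called in limb against liver MCPs at E11.5, placed by its log2(FPKM + 1) difference between limb MCPs at E14.5 and liver EMPs. Filled points passed the filter in that pair and open points did not. Thick bars are medians over all points (1.76 for the 37 genes called higher, -0.63 for the 64 called lower), dashed lines mark 2-fold and the dotted line the median of the 3136 genes the members came from, -0.15.

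Transcript composition moved with the difference. Genes with a known GC content (97.2%) were put in 4 groups of about equal size. In the group with the lowest GC content (33.3% to 44.2%) the median was -0.37, and in that with the highest (53.2% to 70%) it was 0.14, a span of 0.51. Length showed no such slope, with medians between -0.20 and -0.14. Such GC spans over the 15 pairs of libraries ran from 0.01 to 1.84, and limb MCPs at E11.5 against E14.5 had 0.03. Liver MCPs had at least 0.51 against every other library. This was not particular to them, since skin MCPs had at least 0.99 and liver EMPs at least 0.37. The deposited values were not corrected for GC here, and its part in the differences was not tested beyond subtracting the median within each GC decile. After that 33 of the 37 genes called higher and 45 of the 64 called lower were still past 4-fold, of 96 called genes with a known GC content. The medians became 1.66 for amine mediators, 1.52 for heparin genes, -1.49 for erythroid genes, -0.54 for replication, -0.46 for mitosis, -0.63 for chaperones and -0.78 for ribosome biogenesis, against 0 over all genes. Splicing genes, with a median GC content of 45%, went from -0.38 to -0.14.

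**Figure D5:**
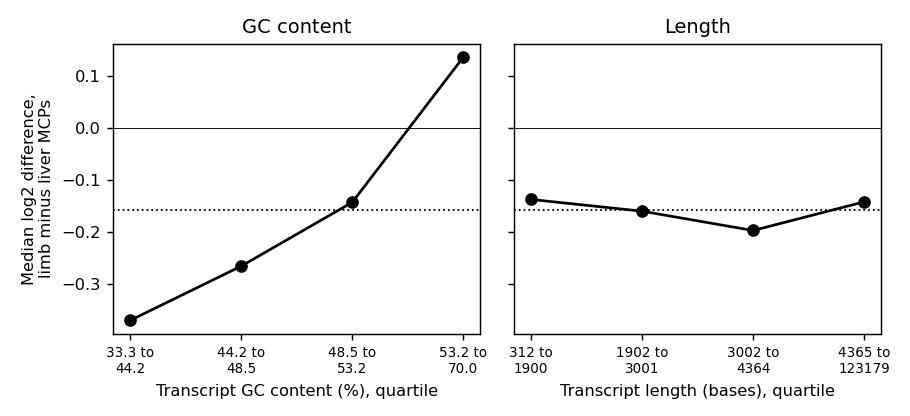
Median log2(FPKM + 1) difference, limb minus liver MCPs, for genes grouped in quartiles of GC content (left) and length (right) of their longest annotated transcript. The medians climb from -0.37 to 0.14 with GC content and stay between -0.20 and -0.14 with length, and the dotted line is the median of all genes passing the filter.

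The size of the difference was set beside that of the other pairs of libraries. Their 3.22% of called genes was the second lowest of the 15 pairs, after EMPs and the macrophage-labelled library with 3.05% and before limb MCPs at E11.5 and E14.5 with 4.14%. Liver EMPs against liver MCPs had 4.87% and liver EMPs against limb MCPs at E11.5 8.62%. Pairs with the skin library had 35.2% to 50.6%. That library listed 6469 genes at 0, the most of the 6 libraries, against 4918 in limb MCPs at E11.5. Its FPKM values had the lowest sum (84036 against 140044), and its top 10 genes held the largest share (24.1% against 7.94%). What part this make-up has in the skin zeros and low skin values given above was not tested. By the correlation across 10769 genes, which are not independent, the pair was the fourth closest (r = 0.884), after EMPs and the macrophage-labelled library (0.913), the liver EMP and MCP libraries (0.885) and the limb libraries of both ages (0.885).

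The thresholds cut through a continuum. Just inside the 4-fold rule were Ss18 (2.01) and Slc22a3 (2.04), and just outside it was Trim26 (1.99). On the lower side Dusp1 (-2.01) and Utp14a (-2.02) were inside and Vrk1 (-1.99) and Ahctf1 (-1.98) outside. Of called genes, Ddx39 (10.01 in the liver) and Acat3 (10.03) only just met the FPKM of 10, and Scmh1 (9.97 in the limb) and Znrd1 (9.94) missed it. Below the filter 176 genes were 4-fold apart, 40 higher and 136 lower.

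On GRCm38, from GENCODE M21, Ccr8 lies on chromosome 9 at 120092114 to 120094906, Cyp11a1 on chromosome 9 at 58006411 to 58027023, Slc18a2 on chromosome 19 at 59260896 to 59296012, Lmo4 on chromosome 3 at 144188530 to 144205220, Lmo2 on chromosome 2 at 103957986 to 103981878 and Ermap on chromosome 4 at 119175457 to 119190011.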

How the data were processed

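Of 6 bulk RNA-seq libraries of sorted mouse embryo cells, 1 per group, 2 are compared here. Per the labels' protocols, RNA was taken with TRIzol and sequenced on an Illumina HiSeq platform. The authors deposited FPKM values. The submitters' processing notes name Bowtie2, RSEM and the builds mm10 and GRCm38, and their versions are not stated in the labels. RSEM shares fragments out between gene copies by estimation.

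Of 17913 rows, 4 with a repeated name were dropped, and 22 of the symbols kept had been turned into dates and are not named. Python 3.11.15 with pandas 2.3.3 and numpy 2.4.6 was used. Differences were of log2(FPKM + 1) for genes that reached an FPKM of 10 in one of the libraries, called at 2. Size factors came from 8774 genes above 0 in all libraries and were set to a geometric mean of 1 over the pair. Depth was estimated from 1409 genes with a single annotated transcript, as the total at which low FPKM values came nearest to whole fragments. At that total 76.7% and 80.1% of values in limb and liver were within 0.2 of a whole fragment. The 40% expected by chance holds for a total fixed beforehand and not for the best of many totals. Both steps were tested on simulated data with counting error only, which checks the code and not how these libraries behave. GENCODE M21 held 97% of the symbols.

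The 49 gene lists, the members and the rules were chosen with earlier results of these data known. Lists are described by counts and medians beside all genes, with no test. Genes named are the 20 largest differences in each direction, the other called genes, up to 6 leading members of each list, markers and the genes next to each threshold. Named outside this rule, after their values had been seen, were Blvrb, Car1, Car2, Erg, Ext2, Fli1, Gata1, Hmga2, Ikzf2, Itga4, Itgb1, Lin28b, Nfe2, Nkg7, Odc1, Papss2, Runx1, Spc24, Spi1, Tal1, Urod and Zfp36l1 among genes that passed the filter, and Cma1, Glce, Hoxd13, Il13, Maoa, Mcpt4, Papss1, Sparc, Tpsab1, Tpsb2, Xylt1 and those of the closing observations below it. Lists with fewer than 5 members passing the filter got no median in the text. Alternatives were other scalings, pseudocounts, filters and the removal of zeros, and, added after the data had been seen, subtraction of GC medians and a reading of the older limb against EMPs without a filter. Some items are not reported here.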

Additional observations from a re-analysis of the deposited data

How the results depend on the processing

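No paired analysis was possible because each group held 1 library. The count of 37 genes higher and 64 lower was 10 and 20 with a pseudocount of 5, 77 and 200 both without an expression filter and at an FPKM of at least 1, 17 and 16 at an FPKM of at least 30, and 251 and 441 at a 2-fold call. The lower share of 63.4% was 52% under median-of-ratios scaling, 51.5% under equal sums (TPM), 48.9% under equal sums with erythroid genes left out, 48.5% at an FPKM of at least 30 and 48.9% after GC medians were subtracted. The overall median of -0.16 was -0.030 under median-of-ratios scaling, -0.0083 under equal sums, -0.0087 under equal sums with erythroid genes left out, 0 without a filter and after GC subtraction, -0.20 at an FPKM of at least 30 and -0.090 at an FPKM of at least 1. Without a filter in the pair of older limb MCPs and liver EMPs, 26 of the genes called lower were lower there, against 14 with it. No called gene changed sign under the scalings, the pseudocounts or the GC subtraction, of those with a value there. List medians changed sign for lipid mediators (-0.03 to 0.077, 0.093 and 0.090 under the 3 scalings, 0.013 without a filter, 0.016 at an FPKM of at least 1 and 0.30 after GC subtraction), for mast cell surface receptors (-0.076), mast, red cell and megakaryocyte factors (-0.020) and adhesion genes (-0.055) at an FPKM of at least 1, for megakaryocyte genes after GC subtraction (0.13), and for granule traffic (-0.018) and survival genes (-0.093) at an FPKM of at least 30. The cause was not tested. Depth limits genes near an FPKM of 1 most, and the limb library was the shallower of the pair.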

Other observations

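Hox genes, which give cells of the limb their position, were low in both libraries. Of 35 in the table, 15 were above 0 in the limb and 15 in the liver, and their summed FPKM was 5.58 and 1.23. Hoxd13, a gene of the distal limb, accounted for 3.58 of the limb sum and was listed at 0 in all 3 liver libraries. Limb MCPs at E14.5 read 2.59 and skin cells were listed at 0. Prrx1 and Twist1, markers of limb mesenchyme, read 0.39 and 0 in the limb library at E11.5.

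Other genes below the filter with a limb value above that of the liver were Meis2, a homeobox factor (9.12 against 1.5, and 26.3 in limb MCPs at E14.5), Tpsg1, a tryptase (2.26, and listed at 0 in the liver), Mcpt8, a protease of basophils and mast cell progenitors (4.09 against 0.5), Mcpt1 (1.71, and listed at 0 in the liver) and Tph1, which starts serotonin synthesis (1.19 against 0.03). They were picked for their values. Of the Y-linked genes, Ddx3y (2.85 and 2.23), Uty (1.29 and 1.51) and Kdm5d (1.32 and 2.37) were above 0 in limb and liver, and Eif2s3y was listed at 0 in the limb against 3.01 in the liver.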
